A study of Mus musculus with 11 samples.

Results

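Genes that move bile acids and other organic anions into and out of hepatocytes were described here across mouse livers with hepatocellular carcinoma. The 10 genes were chosen by name as hepatic transporters: Slc10a1, Slco1b2, Slco1a1, Slco1a4, Slc22a7, Abcb11, Abcc2, Abcc3, Abcc4 and Slc51b. They are 10 of the 43346 genes in the deposited table, each has 1 row there, and all 10 passed the filter on low counts. All livers came from FVB/NJ mice in which MET, the receptor of hepatocyte growth factor, and β-catenin, through which Wnt signals reach the nucleus, had been expressed to induce the carcinoma, and every library carries anti-PD-1 as its treatment label. By response label there were 6 responder libraries, 4 non-responder libraries and 1 library marked as having had no treatment, called untreated here although its treatment label names the antibody. The sources used here give no sex, age, dose, time or way of delivering the drivers, and the labels name liver without saying whether tumour or surrounding tissue was taken.

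Hepatocytes take bile acids up from sinusoidal blood at their basolateral membrane, secrete them across the canalicular membrane into bile, and can return them to blood through basolateral exporters. Uptake runs through the sodium-dependent transporter encoded by Slc10a1 and through sodium-independent organic anion transporters of the Slco family. Canalicular secretion is the rate-limiting step, and in cholestasis the basolateral exporters are known to be induced while uptake is lowered.

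Gene counts summed to between 17876515 and 40565708 in responder libraries, to between 25542066 and 39941835 in non-responder libraries and to 49884800 in the untreated library. Levels are given as CPM, the share of a library's counts with library sizes scaled by TMM. Groups were compared with edgeR's quasi-likelihood test over 17610 genes, with Benjamini-Hochberg adjustment over all of them and a threshold of 0.05. Whether each library is its own mouse is not stated in the labels, so the p-values reflect how far these libraries spread, which may be technical. Non-responder replicate 1 stood apart by its read coverage: a log2 index of read density in later over earlier exons was 1.20 there, against -0.16 to 0.08 in the other treated libraries. The fold change of each transporter and some exon ratios are also given without it. No separate values without it are given for RPKM, ratios between members, other genes or cell markers. Hepatocyte markers were present in every library, and their 11 measured genes summed to 81434 to 96213 CPM in responders and to 105280 to 126090 CPM in non-responders, with albumin making up 63.7% of the sum in responders and 73.2% in non-responders.

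Of the 10 transporters, 3 were higher in responders (Abcc3, Slc22a7 and Slc10a1), 1 was lower (Slc51b) and 6 did not pass. Over all 17610 genes the same rule called 4.11% higher and 5.82% lower in responders, 9.93% in either direction. The median log2 fold change of the 10 was 0.32, against -0.02 for all genes tested. Groups did not overlap for 3 of the 10 members (Slc22a7, Abcc3 and Slc51b), 2 of them above and 1 below. Of all genes tested, 5.60% had every responder above every non-responder and 5.66% every one below, 11.3% together. In these bulk samples, fewer cells of a type and less RNA per cell cannot be told apart.

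**Figure D1:**
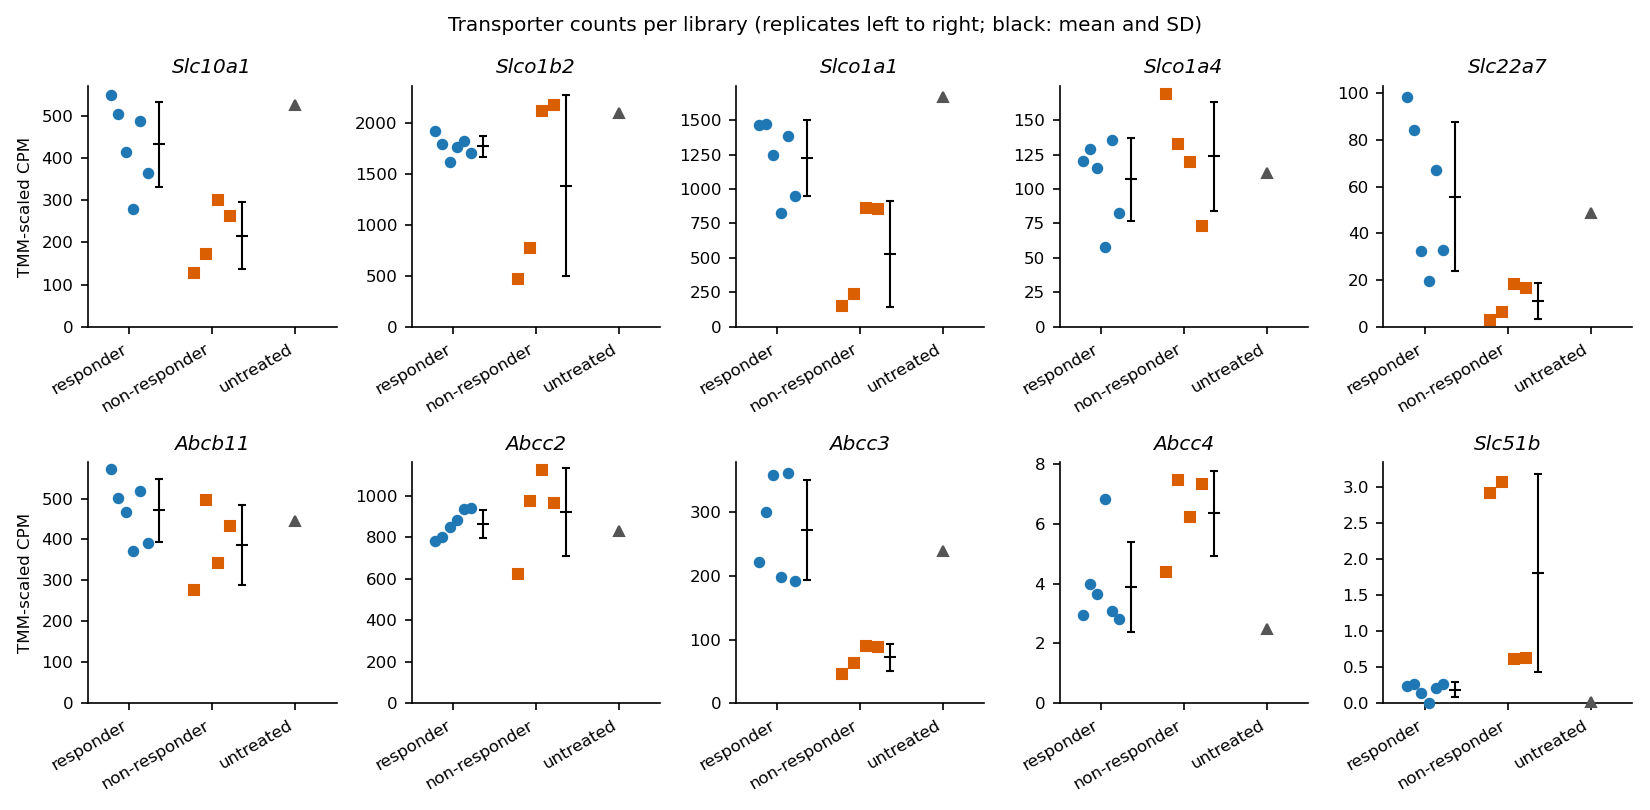
TMM-scaled CPM (y axis, from 0) of each transporter in 6 responder, 4 non-responder and 1 untreated library, 1 point per library with replicates from left to right and the mean and SD in black. Abcc3 and Slc22a7 lie higher in every responder than in every non-responder, Slc51b lies lower, and Slco1b2 splits the non-responders into 467.5 and 778.7 against 2116 and 2179 CPM.

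Slc10a1 (ENSMUSG00000021135, mm10 chromosome 12, 80953185 to 80968079) encodes the sodium-taurocholate cotransporter, the main route of conjugated bile acid uptake. It had 279 to 549 CPM in responders with a median of 451, against 128.0, 171, 300.5 and 264 CPM in non-responder replicates 1 to 4. Responder replicates 4 and 6, at 279 and 364 CPM, were the lowest of their group, and replicate 4 lay below non-responder replicate 3, so the groups overlapped. The mean was 433 ± 100.4 CPM in responders (SD, n = 6) and 216 ± 79.9 CPM in non-responders (SD, n = 4). The log2 difference was 1.003 ± 0.26 (SE, adjusted p = 0.0363 by edgeR), or 2.004-fold. The call was lost without responder replicates 1, 2, 3 and 5 and without non-responder replicates 1 and 2, each in turn, with adjusted p up to 0.113 in edgeR. Calls over all genes, 1748 with all libraries, were 425, 324, 996 and 309 without those responders. Without non-responder replicates 1 and 2 they were 1712 and 79. Without non-responder replicate 1 the log2 fold change was 0.82 (adjusted p = 0.0556 by edgeR). Over all 10 fits that left out 1 library the log2 fold change was 0.82 to 1.21.

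The promoters of the uptake genes Slc10a1, which passed the test, and Slco1b2 and Slco1a1, near each other on chromosome 6, which did not, are shown. A pass beside a miss does not show that the genes differed. Slco1a1 had the larger log2 fold change, 1.21 against 1.003 for Slc10a1. Each promoter is the 300 bases from 250 before to 50 after the start site, from RefSeq (GRCm38.p6), on the minus strand at chr12:80968030-80968329 for Slc10a1, the plus strand at chr6:141629268-141629567 for Slco1b2 and the minus strand at chr6:141946913-141947212 for Slco1a1. Capitals mark TATAAA, the letters of the TATA box wherever they lie, and GTTAAT, one arm of the palindrome bound by the hepatocyte factor HNF1, on either strand.

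Slc10a1: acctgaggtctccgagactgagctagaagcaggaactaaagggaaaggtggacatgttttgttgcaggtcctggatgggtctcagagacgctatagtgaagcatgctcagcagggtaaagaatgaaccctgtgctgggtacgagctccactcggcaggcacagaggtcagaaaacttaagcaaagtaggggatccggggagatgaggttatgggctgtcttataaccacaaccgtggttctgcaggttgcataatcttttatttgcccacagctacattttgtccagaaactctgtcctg

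Slco1b2: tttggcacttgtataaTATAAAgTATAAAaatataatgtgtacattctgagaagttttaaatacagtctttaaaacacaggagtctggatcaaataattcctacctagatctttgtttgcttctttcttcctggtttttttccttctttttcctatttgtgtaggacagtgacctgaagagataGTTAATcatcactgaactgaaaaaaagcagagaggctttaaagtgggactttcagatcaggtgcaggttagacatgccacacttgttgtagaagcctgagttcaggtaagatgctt

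Slco1a1: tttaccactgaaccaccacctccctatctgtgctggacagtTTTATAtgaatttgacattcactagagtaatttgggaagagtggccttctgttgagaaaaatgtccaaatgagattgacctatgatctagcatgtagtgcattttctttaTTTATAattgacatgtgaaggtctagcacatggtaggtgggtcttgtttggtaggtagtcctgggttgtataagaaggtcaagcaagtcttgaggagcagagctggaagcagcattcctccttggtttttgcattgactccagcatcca

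The promoters used list none for Slc22a7 or Abcc3, which both passed. Of the 8 members with a promoter listed, TATAAA was found in 2 (Slco1b2 and Slco1a1), where 13.6% of all 32851 listed promoters hold it. GTTAAT was found in 1, Slco1b2, 66 bases before the start site, against 7.1% of all promoters. The full HNF1 palindrome (GTTAAT, any 1 base, ATTAAC), the repeat bound by HNF4 (AGGTCA, any 1 base, AGGTCA) and the inverted repeat bound by the bile acid receptor FXR (AGGTCA, any 1 base, TGACCT) were found in 0 of the 8 windows on either strand, and in 0.00913%, 0.0396% and 0.00913% of all promoters. No matches of TATAAA and GTTAAT overlapped. These matches describe the letters of the reference and not sites in use.

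Slco1b2 (ENSMUSG00000030236, chromosome 6, 141629518 to 141686646) encodes a liver-specific organic anion transporter of unconjugated bile acids, bilirubin and many drugs. It was nearly level among responders, at 1624 to 1922 CPM with a median of 1781. Non-responder replicates 1 to 4 had 467.5, 778.7, 2116 and 2179 CPM. Replicates 1 and 2 thus lay below every responder and replicates 3 and 4 above every one. The mean was 1773 ± 102 CPM in responders (SD, n = 6) and 1385 ± 890 CPM in non-responders (SD, n = 4), and the log2 fold change of 0.36 ± 0.37 (SE, adjusted p = 0.573 by edgeR) did not pass. Leaving out non-responder replicates 1 to 4 in turn gave 0.068, 0.17, 0.64 and 0.66, none of which passed (adjusted p 0.293 to 0.899 by edgeR).

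Slco1a1 (ENSMUSG00000041698, chromosome 6, 141907282 to 141946962), an organic anion transporter that in mice is more abundant in male than in female liver, also had its lowest values in non-responder replicates 1 and 2. It had 826 to 1471 CPM in responders with a median of 1318, against 153, 239, 863 and 855 CPM in non-responder replicates 1 to 4. Responder replicates 4 and 6, at 826 and 952 CPM, lay next to non-responder replicates 3 and 4. The mean was 1225 ± 275 CPM in responders (SD, n = 6) and 528 ± 385 CPM in non-responders (SD, n = 4). The difference, 1.21 ± 0.46 (SE) in log2, did not pass with edgeR (adjusted p = 0.111), passed with DESeq2 (adjusted p = 0.0293), and ran from 0.91 to 1.56 in the 10 fits that left out 1 library, with 0.91 without non-responder replicate 1.

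Slco1a4 (ENSMUSG00000030237, chromosome 6, 141805440 to 141856199), a related transporter also known from the blood-brain barrier, lies between these 2 genes. It had 57.8 to 136 CPM in responders with a median of 118, against 169, 132, 119.9 and 72.9 CPM in non-responder replicates 1 to 4. Here non-responder replicate 1 was the highest library, the opposite of its place for both neighbours, and responder replicate 4 the lowest. The log2 fold change was -0.21 ± 0.26 (SE, adjusted p = 0.652 by edgeR), and -0.019 without non-responder replicate 1. Reads of that library lay toward the last exons of Slco1a4, with a log2 density ratio of later over earlier exons of 2.23, against -0.36 to 0.12 in the other libraries.

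The neighbouring relatives Slco1a6 and Slco1a5 were scarce. Slco1a6 averaged 4.12 ± 0.57 CPM in responders (SD, n = 6) and 4.29 ± 0.42 CPM in non-responders (SD, n = 4), which is -0.055 in log2 terms (adjusted p = 0.852 by edgeR). Slco1a5 averaged 0.591 ± 0.337 CPM in responders and 0.339 ± 0.156 CPM in non-responders and did not pass either (log2 fold change 0.74, adjusted p = 0.375 by edgeR). Of the 50-base windows in the main transcripts of Slco1a1 and Slco1a4, 2.26% and 2.73% also occur in transcripts of other genes, mainly each other, Slco1a5 and Slco1a6. Reads from those stretches could be split between relatives, while Slco1b2, Slc10a1, Slc22a7, Abcc3 and Abcc4 share 0 such windows. Abcb11 shares 1.79% with the overlapping gene Gm13613, Slc51b 6.52% with its neighbour Rasl12, and Abcc2 0.163% with several genes.

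Slc22a7 (ENSMUSG00000067144, chromosome 17, 46432185 to 46438477) encodes organic anion transporter 2 of the basolateral membrane, and it had the largest increase of the 10. It had 19.6 to 98.2 CPM in responders with a median of 49.9, against 2.95, 6.28, 18.3 and 16.6 CPM in non-responder replicates 1 to 4. The groups did not overlap, but responder replicate 4 at 19.6 CPM lay next to non-responder replicate 3 at 18.3. The mean was 55.7 ± 31.98 CPM in responders (SD, n = 6) and 11.02 ± 7.55 CPM in non-responders (SD, n = 4), which is 2.33 ± 0.61 in log2 terms (SE, adjusted p = 0.0395 by edgeR), or 5.03-fold. Of the 10 fits that left out 1 library the call held in 3, those lacking responder replicate 4, responder replicate 6 or non-responder replicate 3, and edgeR's adjusted p reached 0.112 in the others. Without non-responder replicate 1 the log2 fold change was 2.02 (adjusted p = 0.0681 by edgeR). With no filter on low counts its adjusted p was 0.0977.

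Neither canalicular exporter passed the test. Abcb11 (ENSMUSG00000027048, chromosome 2, 69238282 to 69342616), the bile salt export pump, had 371 to 573 CPM in responders with a median of 485, against 276, 497, 343 and 433 CPM in non-responder replicates 1 to 4. Its groups overlapped widely, and the log2 fold change was 0.28 ± 0.19 (SE, adjusted p = 0.366 by edgeR). It was 0.15 without non-responder replicate 1 and 0.43 without replicate 2, and did not pass in either fit (adjusted p = 0.601 and 0.221 by edgeR). Abcc2 (ENSMUSG00000025194, chromosome 19, 43782192 to 43840740), the canalicular pump of conjugated bilirubin and glutathione conjugates, had 782 to 941 CPM in responders with a median of 867. In non-responder replicates 1 to 4 it had 621, 972, 1125 and 965 CPM, so that replicate 1 lay below the responders and the other 3 lay above them. Its log2 fold change was -0.089 ± 0.17 (SE, adjusted p = 0.773 by edgeR), and -0.24 without non-responder replicate 1 (adjusted p = 0.211). A p that misses the threshold does not show that these levels were equal.

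The 3 basolateral exporters differed in direction. Abcc3 (ENSMUSG00000020865, chromosome 11, 94343295 to 94392997), which exports glucuronides and bile acids into blood, had 192 to 361 CPM in responders with a median of 261. It had 46.2, 63.9, 90.4 and 87.8 CPM in non-responder replicates 1 to 4. The lowest responder, at 192 CPM, stood well above the highest non-responder, at 90.4 CPM. The mean was 272 ± 78.1 CPM in responders (SD, n = 6) and 72.1 ± 21.0 CPM in non-responders (SD, n = 4), which is 1.92 ± 0.26 in log2 terms (SE, adjusted p = 0.0118 by edgeR), or 3.77-fold. It was the one member past the threshold in all 10 fits that left out 1 library, with adjusted p up to 0.0458 in edgeR and a log2 fold change between 1.75, without non-responder replicate 1, and 2.04.

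Abcc4 (ENSMUSG00000032849, chromosome 14, 118482692 to 118706219), another basolateral pump that exports bile acids together with glutathione, was scarce and had its higher mean in non-responders. It had 2.83 to 6.80 CPM in responders with a median of 3.37, against 4.39, 7.45, 6.23 and 7.33 CPM in non-responder replicates 1 to 4. Responder replicate 4, at 6.80 CPM, stood far above the other responders, of which the next had 3.98 CPM. The log2 fold change was -0.72 ± 0.26 (SE) and did not pass with edgeR (adjusted p = 0.0961). Without responder replicate 4 it was -0.95 and passed (adjusted p = 0.0195 by edgeR). Without non-responder replicate 1 it was -0.86 and did not (adjusted p = 0.0584 by edgeR). With all libraries it also passed with DESeq2 (adjusted p = 0.0487) and limma-voom (0.0418).

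Slc51b (ENSMUSG00000053862, chromosome 9, 65412753 to 65422773) encodes the beta subunit of the organic solute transporter, which works as a pair with the alpha subunit encoded by Slc51a and is a target of FXR. It had 6, 8, 6, 0, 8 and 11 counts in responder replicates 1 to 6, against 79, 113, 24 and 25 counts in non-responder replicates 1 to 4, and 1 count in the untreated library. That is 0 to 0.273 CPM in responders with a median of 0.229, against 2.91, 3.07, 0.616 and 0.624 CPM in non-responders. Every responder lay below every non-responder, and non-responder replicates 1 and 2 stood well above replicates 3 and 4. The count of 0 in responder replicate 4 allows up to 3 counts, or 0.168 CPM, by counting error. The mean was 0.190 ± 0.105 CPM in responders (SD, n = 6) and 1.81 ± 1.37 CPM in non-responders (SD, n = 4), which is -3.15 ± 0.60 in log2 terms (SE, adjusted p = 0.0177 by edgeR). The call was lost without non-responder replicate 2 (-2.75, adjusted p = 0.0640 by edgeR) and held in the other 9 such fits, among them that without non-responder replicate 1 (-2.83, adjusted p = 0.0299). Over all genes, 79 passed in edgeR without non-responder replicate 2, against 1748 with all libraries. Slc51a was nearly absent, with 4 counts over all responders, 4 over all non-responders and 0 in the untreated library, and was not tested.

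Exon 3 of Slc51b, of 91 bases, overlaps the last exon of the neighbouring gene Rasl12, so its reads cannot be assigned to one gene without strand. The other 3 exons, which share no base with another gene, held 39 exon counts in responders and 230 in non-responders, summed over libraries. Counted from those exons the log2 fold change was -3.09 (adjusted p = 0.0185 by edgeR). A read across a junction counts once in each exon it touches. Rasl12 itself, a Ras-like gene, averaged 0.302 ± 0.125 CPM in responders (SD, n = 6) and 0.821 ± 0.514 CPM in non-responders (SD, n = 4), and its log2 fold change of -1.38 did not pass (adjusted p = 0.0723 by edgeR). The Slc51b promoter, from RefSeq (GRCm38.p6, chr9:65422724-65423023, minus strand), is shown as that of the one member edgeR called lower, and holds none of the motifs searched.

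Slc51b: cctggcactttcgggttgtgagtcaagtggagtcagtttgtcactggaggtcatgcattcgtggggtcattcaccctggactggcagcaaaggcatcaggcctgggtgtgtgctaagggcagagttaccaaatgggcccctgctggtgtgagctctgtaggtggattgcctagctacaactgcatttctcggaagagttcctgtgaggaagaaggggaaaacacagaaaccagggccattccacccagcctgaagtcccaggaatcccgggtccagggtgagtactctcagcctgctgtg

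**Figure D2:**
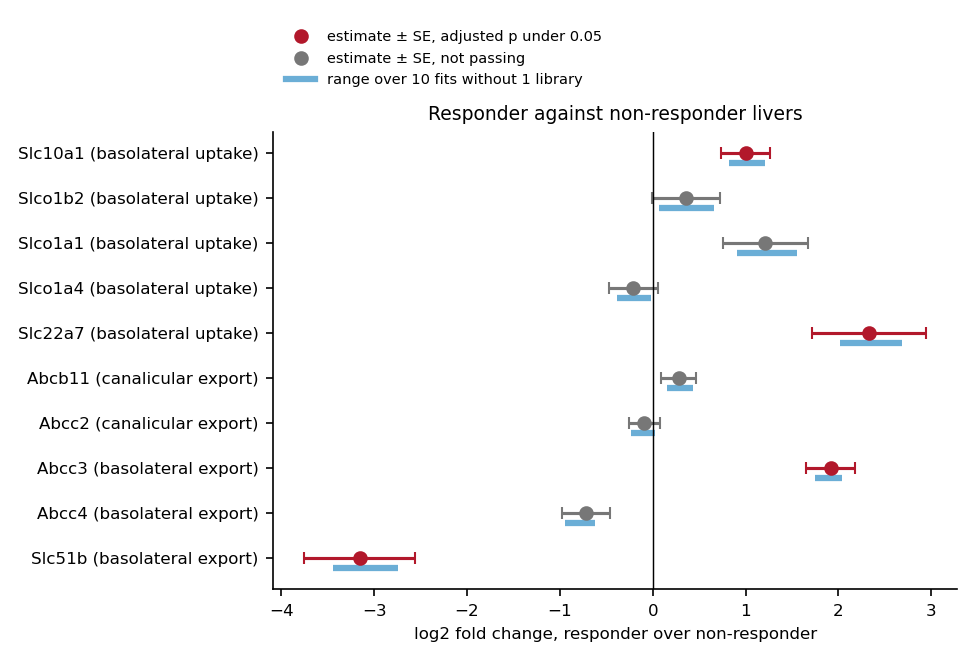
Log2 fold change of each transporter in responder over non-responder libraries (x axis) with its SE, coloured by whether edgeR's adjusted p was under 0.05, above the range over the 10 fits that each left out 1 library. Slc10a1, Slc22a7 and Abcc3 lie to the right of 0 at 1.003, 2.33 and 1.92, Slc51b lies to the left at -3.15, and the range of Abcc2 spans 0.

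Per gene length, in the authors' RPKM, uptake transporters had the 3 highest responder medians. Slco1b2 had the highest median, 245 RPKM in responders and 201 RPKM in non-responders. Slc10a1 was next at 191 RPKM in responders and 91.8 RPKM in non-responders, and Slco1a1 had 172 RPKM in responders and 71.2 RPKM in non-responders. In responders Abcc2 and Abcb11 were near each other, at medians of 72.9 and 65.7 RPKM, and Abcc3 at 29.8 RPKM was above Slco1a4 at 20.5 and Slc22a7 at 17.5 RPKM. Among non-responders Abcc2 had a median of 80.5 RPKM. It was above Slco1a1 in replicates 1 and 2, at 55.7 and 82.1 RPKM against 22.1 and 32.7, and below it in replicates 3 and 4, at 88.4 and 78.8 RPKM against 109.7 and 113. In all 4 non-responders Slco1a4 was above Abcc3 and Slc22a7, and by median Slco1a4 at 22.8 RPKM stood above Abcc3 at 9.36 and Slc22a7 at 4.01 RPKM. Abcc4 and Slc51b were lowest in responders, at 0.413 and 0.298 RPKM, and in non-responders they had 0.811 and 2.71 RPKM.

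**Figure D3:**
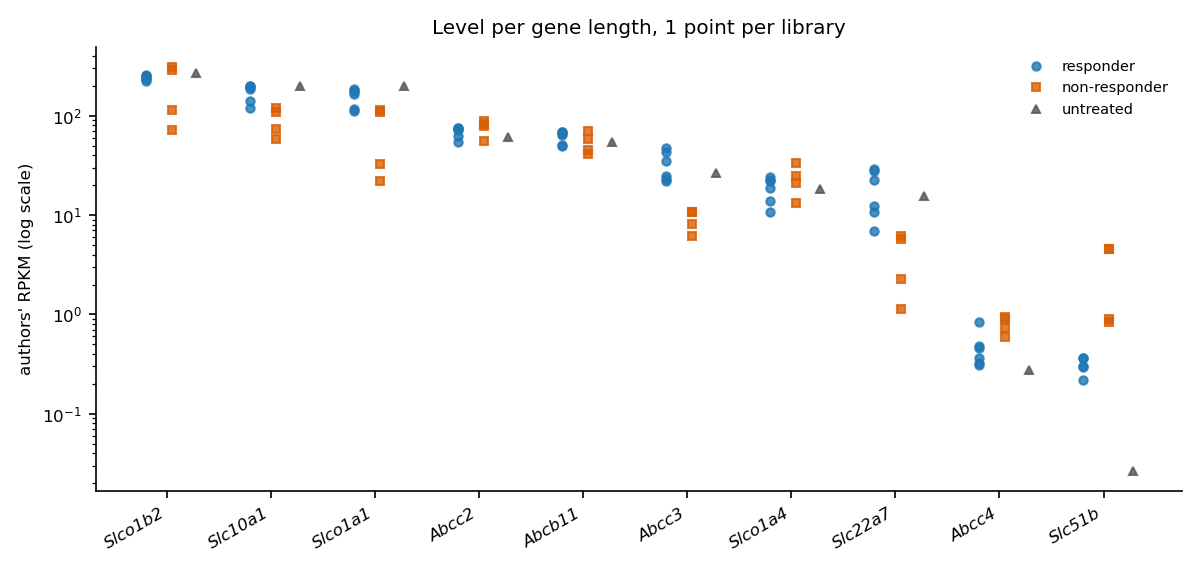
The authors' RPKM (y axis, log scale) of each transporter, ordered by the responder median, 1 point per library in responder, non-responder and untreated livers. Levels run from 245 RPKM for Slco1b2 to 0.298 RPKM for Slc51b in responder medians, and the 0 of Slc51b in responder replicate 4 cannot be drawn on this axis.

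Ratios of 2 members within a library do not depend on the library total. The ratio of Slco1a1 to Slco1b2 in RPKM was 0.437 to 0.766 in responders and 0.287 to 0.381 in non-responders, so the groups did not overlap, and it was 0.742 in the untreated library. Slc10a1 over Abcb11, uptake over canalicular export, was 2.31 to 3.08 in responders, 1.06 to 2.69 in non-responders and 3.63 in the untreated library, and those of the treated groups overlapped. Abcc3 over Abcc4 was 29.3 to 118 in responders, 8.63 to 14.6 in non-responders and 96.4 in the untreated library, with no overlap of the treated groups. Abcc3 over Abcc2 was 0.305 to 0.631 in responders, 0.0984 to 0.136 in non-responders and 0.431 in the untreated library, again with no overlap. The other ratios overlapped. Slc10a1 over Slco1b2 was 0.465 to 0.841 in responders, 0.356 to 0.806 in non-responders and 0.735 in the untreated library, and Slco1a4 over Slco1a1 was 0.0959 to 0.134 in responders, 0.117 to 1.52 in non-responders and 0.0917 in the untreated library. The non-responder maxima of the last 2 ratios, 0.806 and 1.52, were those of replicate 1, whose reads lay toward 3′ ends. The next highest non-responders had 0.648 and 0.759. Treated groups thus did not overlap for 3 of the 6 ratios computed. Among those 3, the ratios of Abcc3 to Abcc4 and to Abcc2 share a gene whose own CPM did not overlap. They are not results separate from it. None of the 6 ratios was tested, the pairs were chosen by hand, and no share over all genes was computed for them.

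The higher levels in responders ran along the whole transcripts. Counting exons that averaged at least 10 counts, all 31 of Abcc3, all 10 of Slc22a7, all 5 of Slc10a1 and all 15 of Slco1a1 had a higher mean CPM in responders. Log2 ratios of responder over non-responder means ran from 1.42 to 2.25 over the exons of Abcc3, from 2.07 to 2.62 for Slc22a7 and from 0.85 to 1.12 for Slc10a1. The last exons had the smallest ratios in Abcc3, Slc22a7 and Slc10a1. Without non-responder replicate 1, whose reads lay toward 3′ ends, the ratios of Abcc3 were 1.53 to 1.97 and those of Slc22a7 1.83 to 2.22. Abcc2 then had a lower mean in responders at all 32 exons, at -0.36 to -0.13, and Slco1b2 stood at 0.0045 to 0.39. Exons of a gene share their libraries and are not replicates.

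**Figure D4:**
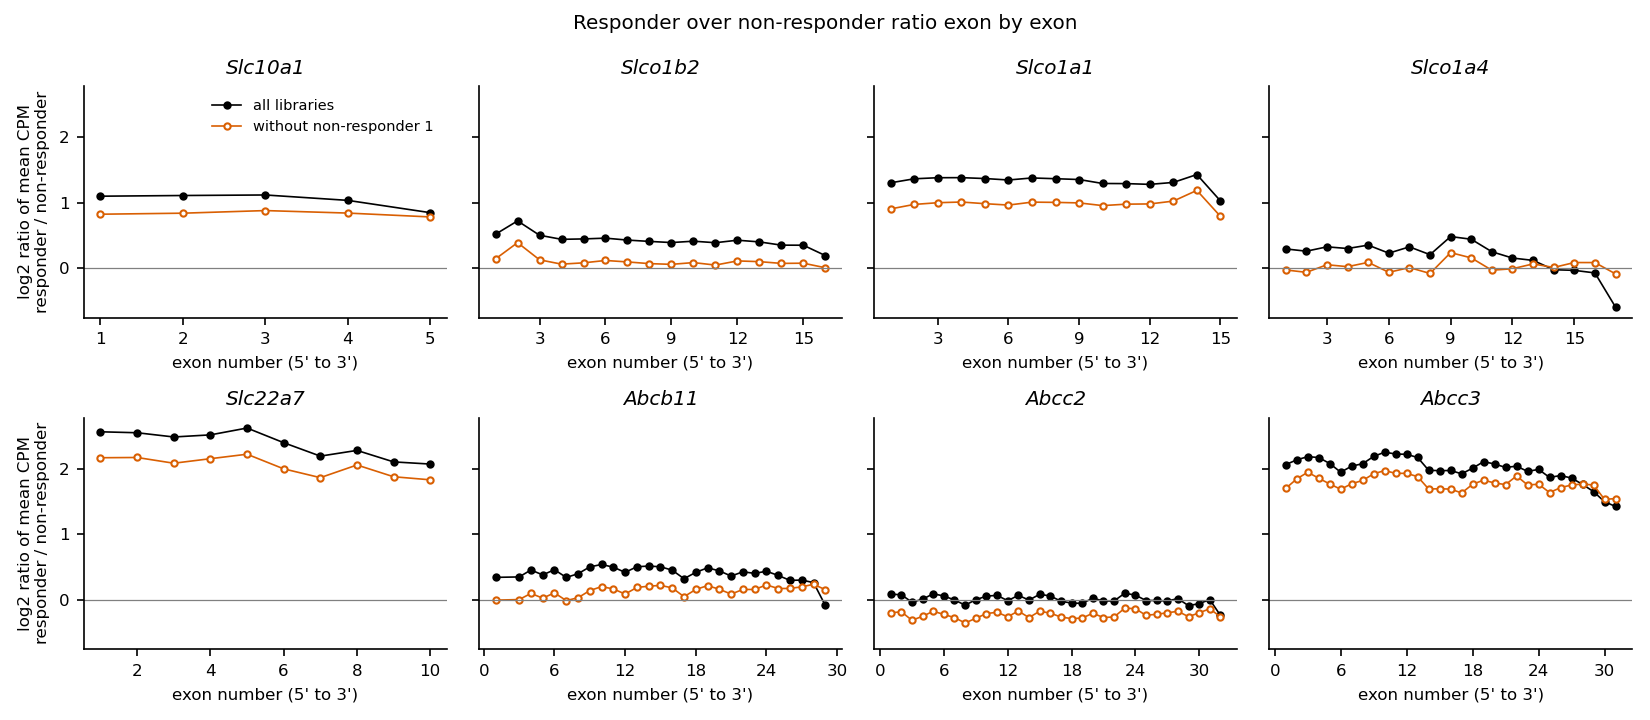
Log2 ratio of mean CPM in responders over non-responders (y axis) for each exon averaging at least 10 counts (x axis, 5′ to 3′), with all libraries in black and without non-responder replicate 1 in orange. Abcc3 and Slc22a7 stay far above 0 at every exon, while Slco1b2, at 0.19 to 0.72 with all libraries, falls to 0.0045 to 0.39 without that library.

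The libraries within each group were not alike. For 5 of the 10 members, responder replicates 4 and 6 were the lowest 2 responders, and for 5 of the 10 non-responder replicates 1 and 2 were the lowest 2 non-responders. Of all 17610 genes tested, 15.7% had the first order and 23.3% the second. Replicates 4 and 6 were also the responders with high Afp, the fetal albumin-like gene of liver tumours, at 121.5 and 99.8 CPM against 1.38 to 2.28 CPM in the other 4 responders and 116 to 381 CPM in non-responders. Afp itself did not pass (log2 fold change -2.69, adjusted p = 0.217 by edgeR). A log2 index of read density in exon 12 of Ctnnb1 and exon 17 of Met, the genes of both tumour drivers, relative to their whole transcripts was 1.31 and 1.51 in those same responders and 0.34 to 0.57 in the other 4. It was 2.38, 2.19, 1.46 and 1.49 in non-responder replicates 1 to 4 and 0.48 in the untreated library. Non-responder replicate 1, at 2.38, was also the library whose reads lay toward 3′ ends. Its log2 read density of later over earlier exons was 1.20, against -0.086 in non-responder replicate 2. How far this moved the 2.38 was not tested. Slc10a1 and Slco1a1 were lowest in the 2 libraries with the highest index of Ctnnb1 and Met exons, at or under 171 and 239 CPM. In the 4 libraries with an index from 1.31 to 1.51 they had 264 to 364 and 826 to 952 CPM, and in the 5 with an index up to 0.57 they had 413 to 549 and 1248 to 1670 CPM. With this index as a covariate 0 of the 10 members passed in edgeR (1 at an unadjusted p under 0.05, Abcc3), and the log2 fold changes of Abcc3, Slc10a1, Slc22a7 and Slc51b were 1.06, 0.20, 0.64 and -1.59. With the title's sample number as a covariate, which was 1 to 29 in responders and 26 to 37 in non-responders, 0 of the 10 passed in edgeR either (2 at an unadjusted p under 0.05), and the same 4 log2 fold changes were 1.89, 0.85, 1.65 and -3.59. Of all 17610 genes tested, 0 passed in edgeR with the index as a covariate and 1 with the sample number, against 1748 with neither. The part of the index and of the sample number in these differences was otherwise not tested.

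**Figure D5:**
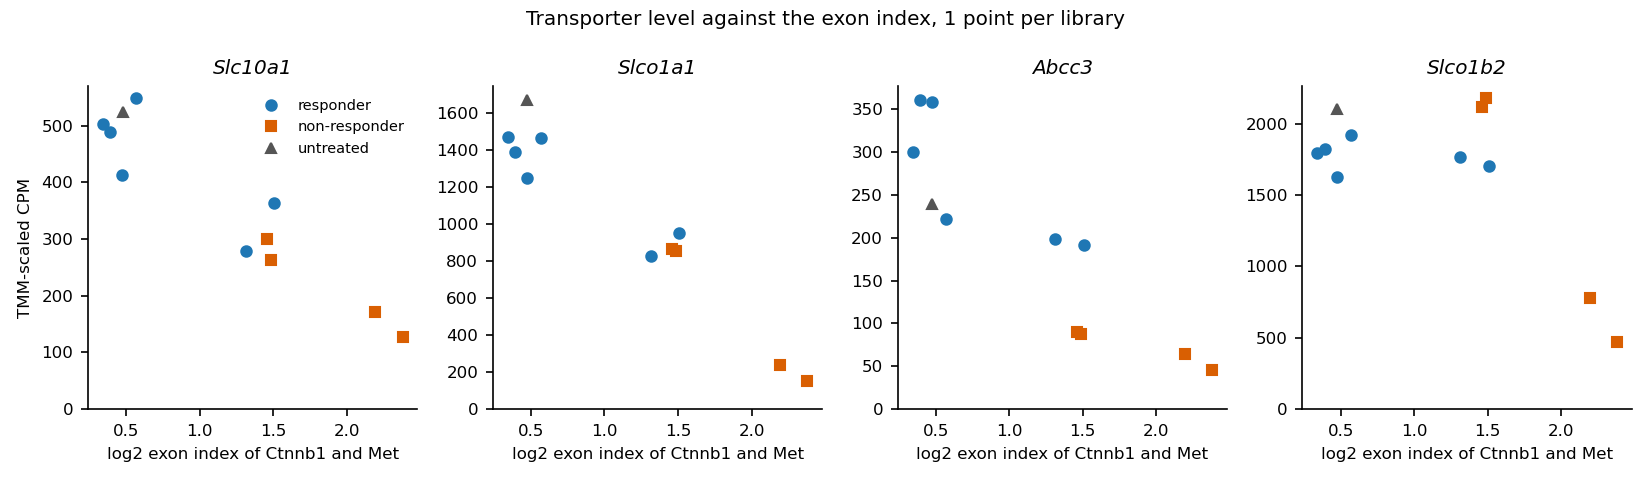
TMM-scaled CPM (y axis) of Slc10a1, Slco1a1, Abcc3 and Slco1b2 against the log2 exon index of Ctnnb1 and Met (x axis), 1 point per library in responder, non-responder and untreated livers. Slc10a1 and Slco1a1 are at 413 to 549 and 1248 to 1670 CPM in the 5 libraries with an index up to 0.57 and lower in all others, Abcc3 is at 192 and 198 CPM in responders and 87.8 and 90.4 CPM in non-responders at an index of 1.31 to 1.51, and Slco1b2 is low in the non-responders at 2.19 and 2.38. The library at 2.38 is non-responder replicate 1, whose reads lay toward 3′ ends.

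At a like index the groups can be set side by side for Abcc3. Responder replicates 4 and 6 had 198 and 192 CPM at an index of 1.31 and 1.51, and non-responder replicates 3 and 4 had 90.4 and 87.8 CPM at 1.46 and 1.49. Slc10a1 overlapped in the same libraries, at 279 and 364 CPM in responders and 300.5 and 264 CPM in non-responders. For Slc22a7 they had 19.6 and 32.8 CPM in responders and 18.3 and 16.6 CPM in non-responders, and for Slc51b 0 and 0.273 CPM in responders and 0.616 and 0.624 CPM in non-responders. These libraries were picked for the index after it was seen, and the values were not tested.

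The untreated library lay within the responders' range for 7 of the 10 members, above it for Slco1b2 (2102 CPM) and Slco1a1 (1670 CPM), and below it for Abcc4 (2.49 CPM). It lay within the non-responders' range for 4. The responders' range spans 6 libraries and the non-responders' 4, and a range over more libraries takes in more values. No share over all genes was computed for these counts. Its Slc10a1 was 525 CPM, its Abcc3 239 CPM, its Slc22a7 48.9 CPM and its Slc51b 0.0204 CPM. For Slc51b it lay within the responders' range only through the 0 of responder replicate 4, the next responder being at 0.142 CPM. One library gives no spread of its own and no test.

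Other genes of bile acid biology were read from lists chosen with results of these data known. Of 17 tested bile acid synthesis genes 5 (29.4%) were higher in responders and 0 lower, with a median log2 fold change of 0.70. Over all genes tested 4.11% were higher and 5.82% lower. Without non-responder replicate 2 the adjusted p of those 5 was 0.0743 to 0.117 by edgeR. In that fit, also used for the lists below, 79 genes passed over all genes, against 1748 with all libraries. A call lost there is thus not particular to these lists. Baat, which conjugates bile acids to taurine, averaged 244 ± 46.2 CPM in responders (SD, n = 6) and 114 ± 52.3 CPM in non-responders (SD, n = 4), which is 1.10 in log2 terms (adjusted p = 0.0382 by edgeR). The bile acid activating enzyme Slc27a5 (0.88), the related Slc27a2 (0.79), Cyp27a1 of the alternative pathway (0.62) and the cholesterol hydroxylase Cyp46a1 (1.79) were the other 4 by log2 fold change. Cyp7a1, the rate-limiting enzyme of the classic pathway, had 178 ± 88.8 CPM in responders (SD, n = 6) and 73.3 ± 40.4 CPM in non-responders (SD, n = 4), and Cyp8b1, which sets the share of cholic acid, had 245 ± 133 CPM in responders and 73.4 ± 40.8 CPM in non-responders. Their log2 fold changes of 1.28 and 1.74 did not pass (adjusted p = 0.103 and 0.0701 by edgeR).

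Of 16 tested genes of bile acid sensing and hepatic transcription control 3 (18.75%) were higher and 0 lower, with a median log2 fold change of 0.052. The shares over all genes tested were 4.11% higher and 5.82% lower. Without non-responder replicate 2 the adjusted p of those 3 was 0.0886 to 0.132 by edgeR. Nr1h4, which encodes FXR, averaged 94.8 ± 5.44 CPM in responders (SD, n = 6) and 71.0 ± 10.6 CPM in non-responders (SD, n = 4), which is 0.42 in log2 terms (adjusted p = 0.0392 by edgeR). Klb, the coreceptor of the intestinal hormone FGF15, had 0.79 and Cebpa, a hepatocyte transcription factor, 0.95. Nr0b2, the repressor induced by FXR, averaged 28.4 ± 12.6 CPM in responders and 39.5 ± 7.84 CPM in non-responders and did not pass (log2 fold change -0.47, adjusted p = 0.344 by edgeR). Hnf4a had -0.076 and did not pass (adjusted p = 0.719 by edgeR).

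Of 23 other hepatic transporter genes tested 4 (17.4%) were higher and 2 (8.70%) lower, with a median of 0.20. The shares over all genes tested were 4.11% and 5.82%. Slco2a1, the prostaglandin transporter, averaged 100.3 ± 17.5 CPM in responders (SD, n = 6) and 34.0 ± 14.8 CPM in non-responders (SD, n = 4), which is 1.56 in log2 terms (adjusted p = 0.0149 by edgeR), and passed in all 10 fits without 1 library, with adjusted p up to 0.0492 by edgeR. The other 4 named here had 0.0552 to 0.115 without non-responder replicate 2. Abcb1a, a multidrug exporter, averaged 2.90 ± 0.91 CPM in responders and 8.10 ± 1.95 CPM in non-responders, which is -1.47 in log2 terms (adjusted p = 0.0149 by edgeR). The organic anion transporter Slco2b1 (1.06), the copper pump Atp7b (0.44) and the cation exporter Slc47a1 (0.86) were also higher by log2 fold change. The other lower gene, Abcg5, a sterol exporter, lay outside the rule for named genes.

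Markers of other cells differed between the groups in part. Cholangiocytes also carry Abcc3 and the organic solute transporter; their 11 markers summed to 94.4 to 140 CPM in responders and to 150 to 205 CPM in non-responders, with 0 of 9 tested passing in edgeR (2 had an unadjusted p under 0.05). DESeq2 called 1, limma-voom 1, and limma-voom using quality weights 4. These sums did not overlap between the groups. Prom1 made up 12.3% of that sum in responders and 41.7% in non-responders, while Krt19 stayed at 0.142 to 1.13 CPM in responders and 0.163 to 1.44 CPM in non-responders, and Cftr and Cldn4 were at 0 in 4 and 3 libraries. Kupffer cell markers summed to 202 to 677 CPM in responders and 91.6 to 478 CPM in non-responders, endothelial ones to 327 to 555 CPM in responders and 201 to 467 CPM in non-responders, and stellate ones to 295 to 467 CPM in responders and 356 to 506 CPM in non-responders. Of 10 tested stellate markers 0 passed in edgeR (6 had an unadjusted p under 0.05). DESeq2 called 3 of them, limma-voom 0, and limma-voom using quality weights 2. Their median log2 fold change was -0.24, with members in both directions, such as Col1a1 at -2.21 and Dcn at 0.61. T and NK cell markers summed to 4.48 to 8.52 CPM in responders and 4.65 to 15.2 CPM in non-responders. Of 10 tested endothelial markers Lyve1 (10%) was lower in responders and 0 were higher, while the list's median log2 fold change was 0.35. Of 10 tested T and NK cell markers Klrb1c and Trac (20%) were lower and 0 higher, with a median of -0.49. Over all genes tested 5.82% were lower. Klrb1c was scarce, at 0.0806 to 0.496 CPM in responders and 0.667 to 7.67 CPM in non-responders. Its non-responder median was 0.953 CPM. Without non-responder replicate 2 the adjusted p of Lyve1, Klrb1c and Trac was 0.0557, 0.0870 and 0.105 by edgeR. In limma-voom 0 of the 10 T and NK cell markers were called. Of the hepatocyte markers 4 were higher in responders (Ass1, Tat, Cps1 and Serpina1a) and Apoa1 was lower, of 11 tested. That is 36.4% and 9.09%, beside 4.11% and 5.82% of all genes tested. Without non-responder replicate 2 none of those 5 passed in edgeR, with adjusted p from 0.0749 to 0.135. The part of these cells in the transporter differences was not tested.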

How the data were processed

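Liver RNA was taken up in TRIzol and sequenced as Illumina Tru-Seq libraries with NEBNext indices, per the labels' protocols. FastQC and mm10 stand in the submitters' processing notes. For the aligner, the counter, the annotation release and strandedness, the entry is "not given in the sources used here". Per the file headers, the authors deposited tables of raw counts per gene and per exon and of RPKM. RPKM was used only to set genes side by side. Of the library total that the authors' RPKM implies, gene counts made up 64.2% to 72.6%.

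After filterByExpr and TMM, counts went into the robust quasi-likelihood F test of edgeR 4.0.16 (R 4.3.3) with Benjamini-Hochberg adjustment. As SE the absolute log2 fold change over the square root of F is given. CPM was scaled by TMM over all 11 libraries. Replicate numbers follow accession order and pair nothing. The closest pair of libraries within a group had a median chi-square 4.68 times that of sampling noise. The 3′ coverage index is the median over 3492 genes. The steps were tested on simulated data. The members, gene lists, tests and alternatives were chosen with earlier results of these data known: all 10 members, up to 5 called genes of each list by p, and a few fixed genes are named. Alternatives were other scalings, filters, DESeq2 1.42.0, limma-voom (limma 3.58.1), exon sums, later-half exons, covariates, the untreated library in the model, a threshold of 0.10 and leaving out each library. Intervals and floors cover counting error only.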

Additional observations from a re-analysis of the deposited data

Results flagged for a closer look

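Among the members, Abcc4 in responders was flagged because 1 library, replicate 4, stood far from the other 5, at 6.80 CPM. Of 20 groups of values looked at (10 members in responders and in non-responders), this was the one flagged, and by the 95% critical value used chance flags about 1 in 20.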

How the results depend on the processing

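Of the 10 members, edgeR called 4, DESeq2 6, limma-voom 5 and limma-voom with quality weights 5. In edgeR the number called was 0 with the title's sample number as a covariate (2 at an unadjusted p under 0.05). It was 0 with the exon index (1 at an unadjusted p under 0.05) and 2 with the 3′ coverage index. When each library was left out in turn it ran from 1 to 5, with 1 without non-responder replicate 2 and 5 without responder replicate 4. Of all genes, edgeR called 1748, DESeq2 3057 and limma-voom with quality weights 3642. In edgeR 3180 were called at a threshold of 0.10, 1 with the title number and 0 with the exon index (1048 at an unadjusted p under 0.05). Leaving out 1 library gave 79, without non-responder replicate 2, to 1994, without non-responder replicate 3. Directions that reversed belonged to members that did not pass: Slco1b2 had -0.0009 with quality weights and -0.29 with the exon index, Slco1a4 0.20 with quality weights, Abcb11 -0.081 with the exon index, and Abcc2 0.20 with the title number and 0.023 without non-responder replicate 3 (its range without 1 library was -0.24 to 0.023). The cause was not tested. Slc51b did not pass the filter in the stricter and later-half settings. No paired analysis was possible because the labels give the groups no shared replicate numbers. Depth limits Slc51b (39 counts in all responders) most.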

Other observations

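Of 16 genes of the canalicular membrane and its anchoring, all tested, 1 was higher and 1 lower in responders, with a median log2 fold change of -0.13. That is 6.25% in each direction, near the 4.11% higher and 5.82% lower among all genes tested. Anpep, a canalicular aminopeptidase, averaged 132 ± 28.7 CPM in responders (SD, n = 6) and 216 ± 14.3 CPM in non-responders (SD, n = 4), which is -0.71 in log2 terms (adjusted p = 0.0233 by edgeR). Mal2, a protein of apical membrane traffic, averaged 60.0 ± 8.53 CPM in responders and 39.0 ± 9.80 CPM in non-responders, which is 0.62 in log2 terms (adjusted p = 0.0440 by edgeR). Without non-responder replicate 2 the adjusted p was 0.0762 for Anpep and 0.0759 for Mal2 by edgeR.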
